A study of Rattus norvegicus with 4 samples.

Results

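The ephrin ligand family was examined by RNA-seq in Schwann cells (SCs), the myelinating glia of peripheral nerve. It was chosen by the fall of Efna2 in Lenti-AS against Lenti-GFP, and the other ligands entered by family name. Of the 8 ligands listed (Efna1 to Efna5 and Efnb1 to Efnb3), 7 were found among the 17949 genes counted and Efna3 was not analysed here. Efna5 had too few counts to be compared, which left 6 ligands tested. The samples were primary SCs from rat sciatic nerve, grown with 10% serum, 4 μM forskolin and 5 ng/ml heregulin-β1 in all cultures, and infected for 48 h. The 2 Lenti-GFP samples received a control virus carrying a green fluorescent protein, and the 2 Lenti-AS samples received a virus expressing the antisense RNA of the Egr2 promoter (Egr2-AS) from a plasmid with a red fluorescent reporter. The reporter therefore differs between the groups together with the Egr2-AS, and these cannot be told apart. Each sample was RNA of a whole transduced population, and the labels do not name the animals or culture days behind the replicates.

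Ephrins are ligands held at the cell surface. The ephrin-A proteins are anchored by a lipid and bind mostly EphA receptors, while the ephrin-B proteins span the membrane and bind mostly EphB receptors, with EphA4 accepting both classes. Signals run forward into the cell that carries the Eph receptor and in reverse into the cell that carries the ephrin, and they mostly govern repulsion, adhesion and cell sorting. In injured nerve, ephrin-B on fibroblasts acts on EphB2 of SCs, through Sox2 and N-cadherin, to gather SCs into cords.

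Library totals were between 74024323 and 96185890 counts. Of 9 SC markers, 8 were above 1 CPM in every sample, with summed levels of 8538 and 8671 CPM (counts scaled to a common library size) in Lenti-GFP and 9161 and 8882 CPM in Lenti-AS, while Gap43 was at 0.264 CPM or less. Of 8 fibroblast markers, 4 were above 1 CPM in every sample, with sums of 1261 and 1094 CPM in Lenti-GFP and 2699 and 692 CPM in Lenti-AS. The collagen gene Col1a1 gave 2131 CPM of the sum in Lenti-AS 1 and 290 CPM in Lenti-AS 2. Dcn, Lum, Thy1 and Fap stayed at 0.0633 CPM or less. Of 5 macrophage markers 2 were above 1 CPM (sums of 3.22 to 3.27 in Lenti-GFP and 3.86 to 4.22 in Lenti-AS), of 5 endothelial markers 1 (20.5 to 20.7 and 15.1 to 15.8 CPM), and of 4 neuronal markers 2 (192 to 201 and 149 to 153 CPM). Their part in the ligand values was not tested. The Lenti-AS libraries each stood apart. Lenti-AS 1 was highest in Col1a1 and Sox10, and Lenti-AS 2 carried 2808 CPM over 5 erythroid markers, mostly globins, against 7.21 CPM or less elsewhere. The Egr2-AS itself was not analysed here. Egr2 was at 49.2 and 42.1 CPM in Lenti-GFP and in Lenti-AS at 61.2 and 54.0 CPM (log2 fold change 0.33 with a standard error, SE, of 0.11, adjusted p = 0.152). Whether antisense reads are among these was not tested, and the strand setting of the counting is not given in the sources used here. Jun was at 1269 and 1139 CPM against 895 and 1084 CPM (log2 fold change -0.28, SE 0.10, adjusted p = 0.198). Without Lenti-AS 2, the log2 fold change of Egr2 was 0.42 and that of Jun -0.43, and without Lenti-AS 1 they were 0.24 and -0.15. Without Lenti-GFP 1 they were 0.45 and -0.20, and without Lenti-GFP 2 they were 0.23 and -0.36. These values for Egr2 and Jun are from edgeR. DESeq2 gave an adjusted p of 0.0336 for Egr2, at less than the 1.3-fold difference needed for a call, and 0.0538 for Jun.

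Efna2, which encodes the lipid-anchored ligand ephrin-A2, had 2614 and 2658 counts in the Lenti-GFP samples and 356 and 304 counts in the Lenti-AS samples. Scaled to library size these were 28.0 and 28.0 CPM in Lenti-GFP and 4.06 and 4.04 CPM in Lenti-AS. The groups lay far apart, with 23.9 CPM between their nearest samples. The group levels were 28.0 ± 0.0291 CPM and 4.05 ± 0.0127 CPM (SD, n = 2 each), so Lenti-AS held 14.5% of the Lenti-GFP level. The fitted log2 fold change was -2.79 with an SE of 0.08 and a 95% interval from -2.99 to -2.59, a level 6.91-fold higher in Lenti-GFP. Since Efna2 was selected on this difference, these values are a description and no test is read from them. Genes called lower in Lenti-AS, by an adjusted p under 0.05 and a fold change of at least 1.3 in edgeR's quasi-likelihood test, made up 0.667% of the 12446 genes tested, and 1.31% were called higher.

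The SD between the Efna2 replicates was smaller in each group than the counting SD. With so few samples per group, an SD can be this small by chance. Efna2 was also selected on the contrast of these same samples, which can favour close replicates. The small spread is therefore a description, and no precision is read from it. A count of 2614 carries a counting SD of 0.548 CPM and a count of 304 one of 0.232 CPM, both above the SDs between samples. The exact 95% Poisson intervals were 26.9 to 29.1 CPM and 27.0 to 29.1 CPM in the Lenti-GFP samples and 3.65 to 4.50 CPM and 3.60 to 4.52 CPM in the Lenti-AS samples. These intervals cover counting error only. The log2 fold change of Efna2 was also -2.79 when any 1 sample was left out. This follows from the same close replicates and is not a separate check. In bulk RNA, fewer cells with the transcript and less transcript per cell cannot be told apart.

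**Figure D1:**
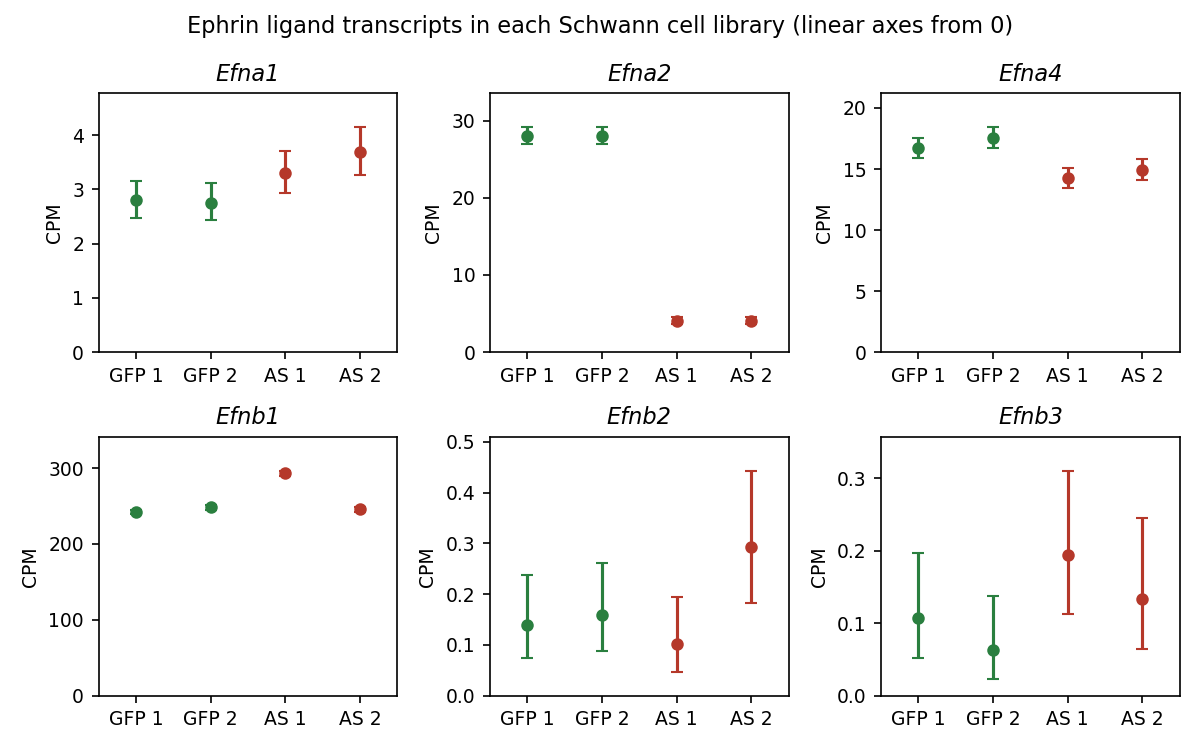
Level of each tested ephrin ligand in CPM (vertical axes, linear from 0) in the Lenti-GFP (green) and Lenti-AS (red) samples, with exact 95% Poisson intervals as bars. Efna2 sits at 28.0 CPM in both Lenti-GFP samples and near 4 CPM in both Lenti-AS samples, while the intervals of Efnb2 and Efnb3, with 6 to 22 counts, overlap between the groups.

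No other ephrin-A ligand was called. Efna4, which encodes ephrin-A4, was at 16.7 and 17.6 CPM in Lenti-GFP and 14.3 and 14.9 CPM in Lenti-AS. The Lenti-AS samples were both lower, by 1.79 CPM at the closest, while replicates differed by 0.845 CPM (Lenti-GFP) or 0.664 CPM (Lenti-AS). This gave a log2 fold change of -0.23 (SE 0.08, 95% interval -0.43 to -0.03), and it did not pass adjustment over all genes in the edgeR fit (adjusted p = 0.181). Efna1, which encodes ephrin-A1, was at 2.80 and 2.75 CPM in Lenti-GFP and 3.30 and 3.68 CPM in Lenti-AS. Its groups did not overlap either, and its log2 fold change was 0.33 (SE 0.16, 95% interval -0.07 to 0.73, adjusted p = 0.295). Efna5, which encodes ephrin-A5, had 0, 0 and 0 counts in Lenti-GFP 1, Lenti-GFP 2 and Lenti-AS 1, which allow up to 0.0321, 0.0317 and 0.0342 CPM, and 2 counts in Lenti-AS 2.

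Among the ephrin-B ligands, Efnb1, which encodes the membrane-spanning ligand ephrin-B1, had between 18445 and 25674 counts per sample. It was at 242 and 248 CPM in Lenti-GFP and 293 and 245 CPM in Lenti-AS. Lenti-AS 1 alone was high, and the other Lenti-AS sample lay between the Lenti-GFP samples. The group levels were 245 ± 4.34 CPM and 269 ± 33.6 CPM (SD, n = 2 each), with a log2 fold change of 0.14 (SE 0.09, 95% interval -0.08 to 0.35, adjusted p = 0.419). Without Lenti-AS 1 the log2 fold change of Efnb1 was 0.00165, and without Lenti-AS 2 it was 0.26, which is under the fold change of 1.3. Lenti-AS 1 was also the sample with the highest fibroblast sum (2699 CPM), most of it Col1a1 (2131 CPM) and Col1a2 (340 CPM). The other fibroblast markers were not raised there, and Pdgfrb was at 225 CPM against 236 to 279 CPM in the other samples. The part of any of this in the Efnb1 value was not tested.

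Efnb2, the ephrin-B ligand best known from vessels, was barely detected, with 13 and 15 counts in Lenti-GFP and 9 and 22 counts in Lenti-AS. The Lenti-AS samples fell on either side of the Lenti-GFP samples, and the log2 fold change of 0.38 (SE 0.60) had a 95% interval from -1.09 to 1.85 (adjusted p = 0.748). It was -0.53 without Lenti-AS 2. Efnb3, known for its role as a midline barrier in the nervous system, had 10 and 6 counts in Lenti-GFP and 17 and 10 counts in Lenti-AS. Its log2 fold change of 0.94 (SE 0.54) had an interval from -0.39 to 2.27 (adjusted p = 0.359). A change of 2-fold in Efnb2 or Efnb3, in either direction for Efnb2 and upward for Efnb3, lay within these intervals and is not excluded by them.

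Of the 5 tested ligands other than Efna2, 0 were called by edgeR's quasi-likelihood test, against 1.31% called higher and 0.667% called lower of all genes tested. At an unadjusted p under 0.05 there was 1 of the 5, Efna4, where 2716 of all 12446 genes were. DESeq2, limma-voom and the likelihood ratio test also called 0 of them. Over all genes, DESeq2 called 6.25% of the 10033 it gave an adjusted p. Of all 12446 genes, the likelihood ratio test called 4.19% and limma-voom called 235 genes. DESeq2 gave adjusted p-values for 3 of them, leaving out Efnb2 and Efnb3. The median log2 fold change of the 5 ligands was 0.33 in edgeR and 0.19 in limma-voom, beside 0.0071 over all genes tested in edgeR. In edgeR 4 were above 0 and 1 below, where 6385 of all 12446 genes were above 0. The 95% intervals of all 4 included 0, and Efnb2 and Efnb3 among them had 6 to 22 counts. Groups did not overlap for Efna1 and Efnb3 upward, a pattern held by 27.7% of all genes tested, and for Efna4 downward, held by 27.2%. With 2 samples per group, an exact permutation test of a single gene cannot give a two-sided p under 0.333. Levels are compared here within a gene only, since transcript lengths on rn6 were not used.

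Sequences upstream of the transcription start are shown for Efna2 and, for contrast, for Efna4 and Efnb1, the other ligands above 10 CPM in Lenti-GFP. Each is the 250 bases before the start from RefSeq on the GRCr8 assembly, which is not the rn6 assembly of the counts. Efna2 lies at chr7:10177720-10177969 and Efna4 at chr2:177050714-177050963, both on the minus strand, and Efnb1 at chrX:68297279-68297528 on the plus strand. Capitals mark GC boxes (GGGCGG, on both strands), the letters bound by Sp and KLF factors.
Efna2: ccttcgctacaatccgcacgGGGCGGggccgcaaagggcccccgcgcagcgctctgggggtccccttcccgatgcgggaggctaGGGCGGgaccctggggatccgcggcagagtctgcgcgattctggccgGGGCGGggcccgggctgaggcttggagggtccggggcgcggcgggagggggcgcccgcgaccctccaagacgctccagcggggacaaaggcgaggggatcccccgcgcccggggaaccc
Efna4: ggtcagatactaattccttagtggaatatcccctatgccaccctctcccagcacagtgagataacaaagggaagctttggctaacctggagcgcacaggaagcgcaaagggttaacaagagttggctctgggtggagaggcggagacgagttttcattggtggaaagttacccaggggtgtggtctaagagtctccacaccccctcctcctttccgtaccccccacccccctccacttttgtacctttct
Efnb1: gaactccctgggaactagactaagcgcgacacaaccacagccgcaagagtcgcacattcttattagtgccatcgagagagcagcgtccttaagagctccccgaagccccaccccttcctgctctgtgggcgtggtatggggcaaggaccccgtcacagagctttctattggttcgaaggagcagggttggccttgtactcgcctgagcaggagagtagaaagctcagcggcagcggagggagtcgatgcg
The windows of Efna1, Efna2 and Efna3 held 5, 3 and 3 GC boxes, and those of Efna4, Efna5, Efnb1 and Efnb2 held 0. A GC box was present in 30.5% of the 33469 windows of this length. The Efna2 window was 77.2% G or C with 31 CG pairs, more than 97.8% and 95.3% of all windows, and that of Efnb2 was richer still, at 80.4% with 43 CG pairs. For Efna4 the values were 53.2% and 5 CG pairs, and for Efnb1 58.4% and 15 CG pairs, beside medians of 51.2% and 5 over all windows. The AP-1 motif TGANTCA, present in 6.34% of windows, had no match in any of the 7 ligand windows matched. The EGR motif GCGNGGGCG, present in 4.29% of windows and able to share letters with a GC box, had 1 match each for Efna1 and Efna3 and none for Efna2, Efna4, Efna5, Efnb1 and Efnb2. These matches describe the letters of the windows, since binding was not measured in these counts.

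The ephrins bind Eph receptors, and 14 of these were listed, 11 had counts analysed here and 10 were tested. None of the 10 was called by edgeR's quasi-likelihood test, against 1.31% of all genes called higher and 0.667% lower. An unadjusted p under 0.05 was held by 2 of the 10, Epha4 and Epha7, and by 2716 of all 12446 genes, so the receptors' share was near that of all genes. Their median log2 fold change was -0.06, with 4 above 0 and 6 below. Epha4, the receptor that binds ephrins of both classes, was at 15.4 and 17.7 CPM in Lenti-GFP and 10.4 and 12.1 CPM in Lenti-AS. Its groups did not overlap, a pattern held downward by 27.2% of all genes tested. The log2 fold change of Epha4 was -0.56 (SE 0.12, 95% interval -0.86 to -0.27, edgeR adjusted p = 0.0781). The call depended on the test, since DESeq2 gave an adjusted p of 0.0031 where it called 6.25% of genes, and the likelihood ratio test one of 0.0177 where it called 4.19%. The log2 fold change of Epha4 was -0.46 without Lenti-AS 1 and -0.68 without Lenti-AS 2. It was -0.66 without Lenti-GFP 1 and -0.46 without Lenti-GFP 2. The replicate block gave an adjusted p of 0.104.

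Epha7, an ephrin-A receptor with roles in axon guidance, was at 2.58 and 1.83 CPM in Lenti-GFP and 1.39 and 1.50 CPM in Lenti-AS. Its log2 fold change was -0.61 with an SE of 0.24 (adjusted p = 0.222). Epha2, an ephrin-A receptor common in cultured epithelial cells, was at 68.7 and 68.2 CPM against 58.9 and 65.0 CPM (log2 fold change -0.14, SE 0.08, adjusted p = 0.330). Epha3, a high-affinity receptor of ephrin-A5, was at 2.43 and 2.89 CPM against 2.27 and 2.50 CPM (log2 fold change -0.16, SE 0.19, adjusted p = 0.657). The 4 ephrin-A receptors above 1 CPM all had a log2 fold change below 0, as had 6061 of all 12446 genes. None of the 4 passed adjustment by edgeR's quasi-likelihood test. Of the tested ephrin-A receptors with lower means, Epha1 was at -0.05 and Epha5 at 0.02.

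Ephb2, the receptor through which fibroblast ephrin-B acts on SCs, was at 31.0 and 29.8 CPM in Lenti-GFP and 27.8 and 33.1 CPM in Lenti-AS. The Lenti-GFP samples lay between the Lenti-AS samples, and the log2 fold change was 0.00358 with a 95% interval from -0.23 to 0.24 (adjusted p = 0.987). Sox2, the transcription factor downstream of EphB2 in this route, was at 321 and 333 CPM against 357 and 355 CPM (log2 fold change 0.12, SE 0.05, adjusted p = 0.238). Cdh2, which encodes N-cadherin, was at 199 and 210 CPM against 218 and 215 CPM (log2 fold change 0.08, SE 0.05, adjusted p = 0.436). Ephb3, another ephrin-B receptor, was at 22.6 and 18.5 CPM in Lenti-GFP and at 35.0 and 20.4 CPM in Lenti-AS, high in Lenti-AS 1 alone (log2 fold change 0.44, SE 0.25, adjusted p = 0.358). Without Lenti-AS 1 the log2 fold change of Ephb3 was -0.0107, and without Lenti-AS 2 it was 0.77. Ephb6, a receptor that lacks kinase activity, was at 10.7 and 10.1 CPM against 11.0 and 8.81 CPM (log2 fold change -0.07, SE 0.14, adjusted p = 0.801). Epha1, Epha5, Ephb1 and Epha10 were at 1.03 CPM or less in every sample.

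**Figure D2:**
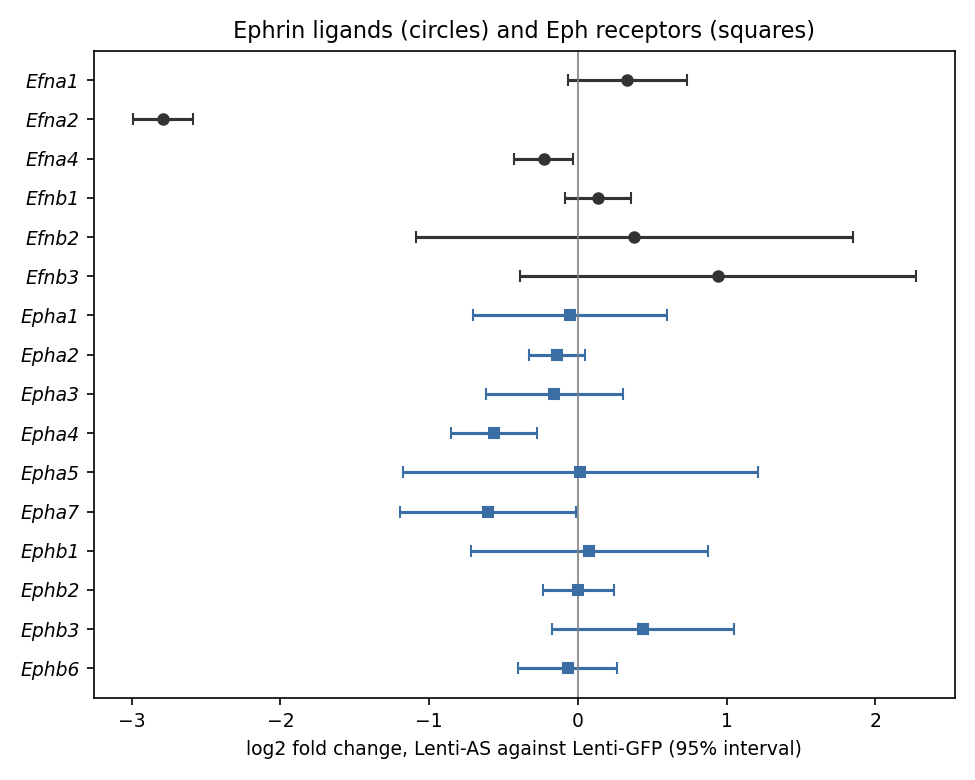
Fitted log2 fold change of Lenti-AS against Lenti-GFP (horizontal axis) for the 6 tested ephrin ligands (circles) and the 10 tested Eph receptors (squares), with 95% intervals from the quasi-likelihood fit. Efna2, at -2.79, is the ligand selected on this value, and of the others Efna4, Epha4 and Epha7 have intervals that leave out 0 before adjustment over all genes.

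Genes that carry Eph signals forward into the cell were read from a list of 34, of which 31 were tested. None was called by edgeR's quasi-likelihood test, against 1.31% of all genes called higher and 0.667% lower. An unadjusted p under 0.05 was held by 10 of the 31, and by 2716 of all 12446 genes. Of the 10, Bcar3 (log2 fold change -0.30), Acp1 (-0.24), Crk (-0.20), Rasa1 (-0.18), Chn2 (-0.17) and Nck1 (-0.17) were lower in Lenti-AS. Rac1 (0.48), Tiam1 (0.27), Sipa1l1 (0.26) and Fyn (0.25) were higher. Over the list, the median log2 fold change was -0.07, with 14 above 0 and 17 below. Rac1, a small GTPase that drives membrane protrusion, was at 36.5 and 36.3 CPM in Lenti-GFP and 55.2 and 46.1 CPM in Lenti-AS. The log2 fold change of Rac1 was 0.48 (SE 0.10, edgeR adjusted p = 0.0755). Its groups did not overlap, a pattern held upward by 27.7% of all genes tested. Rac1 was the 1 member of this list that DESeq2 (adjusted p = 0.000698) and the likelihood ratio test (adjusted p = 0.0339) called. Those tests called 6.25% and 4.19% of all genes. limma-voom, which called 235 of all 12446 genes, called 0 of the list. With 1 sample left out, the log2 fold change of Rac1 ran from 0.34 (without Lenti-AS 1), under the fold change of 1.3, to 0.60 (without Lenti-AS 2). The replicate block in edgeR gave an adjusted p of 0.123.

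Reverse signalling and shedding of ephrins were read from a list of 27 genes, 3 of them shared with the forward list, of which 21 were tested. None was called by edgeR's quasi-likelihood test, against the same 1.31% and 0.667%. An unadjusted p under 0.05 was held by 6 of the 21, and by 2716 of all 12446 genes, and the median log2 fold change was 0.06. The likelihood ratio test, which called 4.19% of all genes, and limma-voom, which called 235 genes, called 0. DESeq2, which called 6.25% of all genes, called 1, Tnfrsf1a. The DESeq2 adjusted p was lower for Ngfr (0.0033) and Fyn (0.0062), whose changes were under the fold change of 1.3. Tnfrsf1a, a tumour necrosis factor receptor, was at 16.0 and 15.2 CPM against 30.1 and 17.7 CPM, high mostly in Lenti-AS 1 (log2 fold change 0.62, SE 0.23, edgeR adjusted p = 0.203, DESeq2 adjusted p = 0.0440). Its log2 fold change was 0.19 without Lenti-AS 1 and 0.95 without Lenti-AS 2. Ngfr, the p75 neurotrophin receptor, which can partner ephrin-A in reverse signalling, was at 509 and 462 CPM against 648 and 576 CPM (log2 fold change 0.33, SE 0.08, adjusted p = 0.100). With 1 sample left out, the log2 fold change of Ngfr ran from 0.25 (without Lenti-AS 1) to 0.42 (without Lenti-AS 2). Fyn, a Src family kinase that acts in both directions of the pathway, was at 95.1 and 92.0 CPM against 111 and 112 CPM (log2 fold change 0.25, SE 0.06, adjusted p = 0.0918). Adam10, a protease that can cut ephrin-A from the cell surface, was at 476 and 505 CPM against 543 and 531 CPM (log2 fold change 0.13, SE 0.06, adjusted p = 0.247).

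Efna2 lies on chromosome 7, Efna1 and Efna4 on chromosome 2, Efnb1 on X, Efnb2 on 16, Efnb3 on 10 and Efna5 on 9 (RefSeq, GRCr8). To see whether genes beside Efna2 moved with it, the 5 nearest tested genes on each side in RefSeq order were read. Of these 10 genes, 0 were called by edgeR's quasi-likelihood test, against 1.31% of all genes called higher and 0.667% lower. An unadjusted p under 0.05 was held by 2 of the 10 (Gamt and Cbarp), near the share of 2716 among all 12446 genes, and the lowest adjusted p was 0.137. Their log2 fold changes ran from -0.15 to 0.74, with 6 above 0 and 4 below. The nearest on one side, Pwwp3a, which encodes a chromatin protein, was at 49.8 and 49.3 CPM in Lenti-GFP and 44.4 and 49.8 CPM in Lenti-AS. The nearest on the other, Cirbp, which encodes a cold-inducible RNA-binding protein, was at 230 and 208 CPM against 171 and 224 CPM. The highest value was that of Midn, which was at 25.5 CPM in Lenti-AS 1 and between 8.29 and 11.0 CPM in the other samples. In the same annotation, the span of Efnb1 overlaps the miRNA gene Mir3573, which had a mean of 0.208 CPM beside 257 CPM for Efnb1. The spans of Efna4 and Efna5 overlap the long noncoding RNAs LOC120100864 and LOC120094759. Reads in these overlaps may not be separable.

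**Figure D3:**
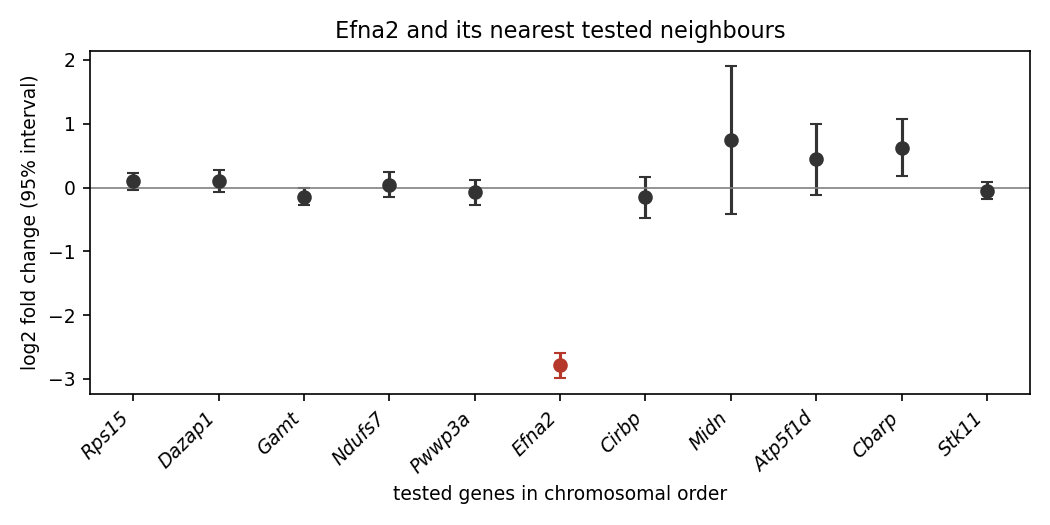
Fitted log2 fold change (vertical axis, with 95% intervals) of Efna2 (red) and the 5 nearest tested genes on each side (black), in chromosomal order and not to distance. The neighbours lie between -0.15 and 0.74, and Efna2 lies at -2.79.

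The genes whose pattern was most like that of Efna2 were found by the Euclidean distance between log2(CPM + 0.5) values over the 4 samples, each centred on the gene's mean, among the 10250 other tested genes averaging 1 CPM or more. They were Cercam (distance 0.194), Pitx1 (0.224), Vsig10 (0.755), Hoxd3 (0.813) and Gper1 (1.19). Cercam, named as a cell adhesion molecule of brain endothelium, was at 12.7 and 13.7 CPM in Lenti-GFP and 1.40 and 1.69 CPM in Lenti-AS. Pitx1, a homeodomain transcription factor of the hindlimb, was at 4.96 and 4.94 CPM against 0.548 and 0.466 CPM. Hoxd3, a Hox transcription factor, was at 16.2 and 15.2 CPM against 1.68 and 0.798 CPM, and its Lenti-AS samples differed more from each other than those of Efna2. Vsig10, an immunoglobulin-domain membrane protein, was at 48.0 and 48.5 CPM against 14.0 and 10.6 CPM, and Gper1, a membrane oestrogen receptor, at 2.69 and 2.46 CPM against 0.559 and 0.665 CPM. These genes were picked on the contrast that chose Efna2, so the likeness is a description without a test.

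**Figure D4:**
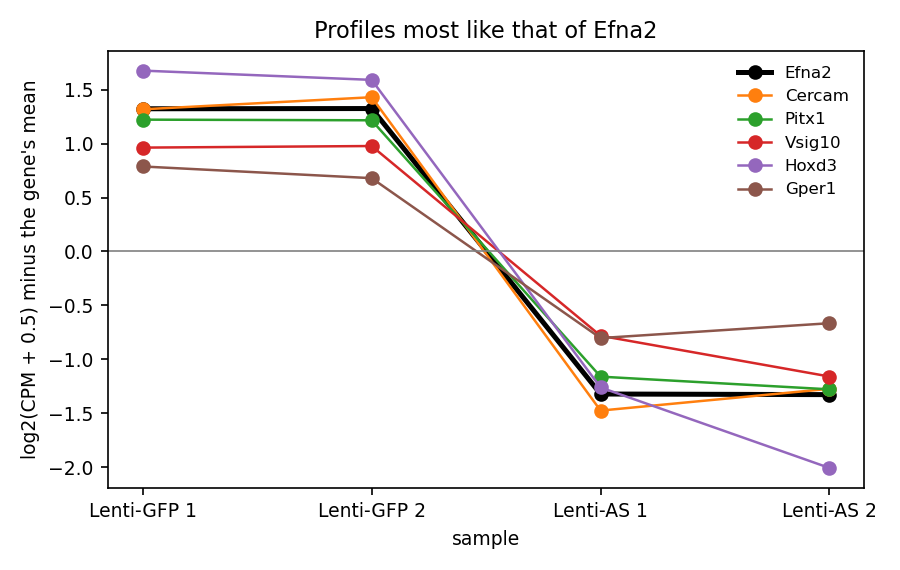
Values of log2(CPM + 0.5) minus the gene's mean over the 4 samples (vertical axis) for Efna2 (black) and the 5 genes nearest to it. Lines join the values of one gene and mark no order of samples. Cercam and Pitx1 follow Efna2 most closely, and Hoxd3 falls further in Lenti-AS 2 than in Lenti-AS 1.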

How the data were processed

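Gene counts of 2 Lenti-GFP and 2 Lenti-AS samples of rat SCs were used, grouped by their titles. The authors deposited raw counts per gene, made with featureCounts on RefSeq exons of rn6 from 50 bp paired-end reads. The paper's methods name hisat2 as the aligner, while the submitters' processing notes list GSNAP, so which one made these counts is unsettled. The strand setting is not given in the sources used here. One row repeating the header was dropped. The 12446 genes that reached 10 counts in 2 or more samples entered edgeR 4.0.16 (R 4.3.3), with TMM factors (0.986 to 1.02), glmQLFit in its default form and glmQLFTest, and no replicate term. Benjamini-Hochberg adjustment ran over all of these genes. A call needed an adjusted p under 0.05 and a 1.3-fold difference, as in the paper. Standard errors were taken from the F statistic and 95% intervals from the t distribution of the fit. These p-values set the group difference against the spread between replicates, estimated with information from all genes. Whether that spread covers animals or culture days is not given in the labels.

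The members, the gene lists and the rule for named genes (all ligands, Eph receptors above 1 CPM, called list members, Sox2, Cdh2, Egr2, Jun, neighbours and nearest profiles of Efna2) were chosen with earlier results of these data known. Other genes of the lists are named as examples, chosen after their values were seen. Alternatives were DESeq2 1.42.0, limma-voom (limma 3.58.1), the likelihood ratio test, the newer glmQLFit, other factors and filters, a replicate block and leaving out each sample. The tests were tried on simulated counts. Of the lists, Efna3, Epha6, Epha8, Ephb4, Itsn2 and Cbl were not analysed here. Promoter windows came from RefSeq (GRCr8) and matched 7 ligands. A further SC marker is not reported here.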

Additional observations from a re-analysis of the deposited data

How the results depend on the processing

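Efna2 had a log2 fold change of -2.79 in all fits except those with upper-quartile factors (-2.78) and library totals (-2.76). The median of all genes tested moved from 0.0071 to 0.0390 with library totals. Of the ligands other than Efna2, 0 were called in any of the 11 other settings or 4 fits without a sample. Efnb2 alone among the ligands changed sign, with values from -0.53 to 0.97 when a sample was left out (9 to 22 counts a sample). Leaving out a sample also gave -0.13 to 0.12 for Ephb2, -0.0107 to 0.77 for Ephb3 and -0.24 to 0.0824 for Ephb6, and Ephb2 was at -0.00594 with limma-voom.

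Against 246 genes called, DESeq2 called 627, the likelihood ratio test 521, and the fits without a sample between 1 (without either Lenti-GFP sample) and 1519 (without Lenti-AS 2). Against 0 Eph receptors, DESeq2 and the likelihood ratio test each called 1, and the fits without a sample 0 to 2. Against 0 forward signalling genes they each called 1, and the fits without a sample 0 to 1. Against 0 reverse signalling and shedding genes DESeq2 called 1, and the fits without a sample 0 to 2. The cause was not tested. With 1 sample in a group, that sample is assumed to vary like the other group.

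Nothing in the labels ties samples of one replicate number, and their deviations from the group means had a correlation of -0.0123 across genes. Under a replicate block, 17 genes were called, Efna2 was at -2.79, Ephb2 at -0.0012, and 0 other ligands and 0 genes of the 3 lists were called.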
